A study of Mus musculus with 8 samples.

Results

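Genes of the antioxidant and glutathione system were followed in mouse hematopoietic stem cells after treatment with G-CSF (granulocyte colony-stimulating factor), a growth factor for the neutrophil lineage. They were chosen by name and function, as a list of 38 genes of superoxide, peroxide, thioredoxin and glutathione chemistry with the regulators NRF2 (Nfe2l2) and Keap1. Of these, 36 had a probe set annotated to that gene alone and were measured among 19938 genes, while Prdx5 and Prdx6 were not analysed here. The cells were KSL SLAM cells sorted from bone marrow (negative for lineage markers, CD48 and CD41, positive for c-Kit, Sca-1 and CD150). Both groups were sampled at 36 h, G-CSF having been given under the skin at 125 mcg/kg 2 times a day and the controls having received phosphate-buffered saline (PBS). Each of the 4 G-CSF and 4 PBS samples was a pool of cells from 5 to 10 mice, on 1 MoGene 1.0 ST array. The strain, age and sex of the mice and any genetic alteration were not given in the sources used here. Values are log2 intensities, fold changes are G-CSF minus PBS on that scale, and the number of arrays limits their precision.

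Superoxide, made by respiration and by the phagocyte oxidase, is turned into hydrogen peroxide by superoxide dismutases. Catalase, glutathione peroxidases and peroxiredoxins then remove the peroxide. The glutathione peroxidases and peroxiredoxins draw electrons from glutathione or thioredoxin, which are recharged with NADPH. The transcription factor NRF2 switches on many of these genes when its inhibitor KEAP1 is modified by oxidants or electrophiles. Blood stem cells at rest are known for low levels of reactive oxygen, and mature neutrophils for making large amounts of it.

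The arrays were alike apart from PBS replicate 3, whose interquartile range was 1.68, against 2.42 to 2.80 on the other 7 arrays. That array held the lowest of the 8 values for 20 of the 36 antioxidant genes (55.6%), compared with 22.7% of all genes and 43.2% of the genes above the median intensity. Results are therefore given with and without it. The 14 measured stem cell markers averaged 8.11 to 8.34 on the G-CSF arrays and 7.69 to 8.49 on the PBS arrays, with 5 positive fold changes and a median of -0.03. Among them Kit had a mean of 10.35 after G-CSF and 10.70 after PBS, Procr 7.83 and 7.29, and Slamf1, the gene of CD150, 6.78 and 6.62, and Esam, the 1 marker at an unadjusted p under 0.05, had a log2 fold change of 0.89 (limma adjusted p = 0.206). No antioxidant gene belongs to a marker list used here. The 16 measured neutrophil markers averaged 8.49 to 10.34 on the G-CSF arrays and 7.27 to 8.21 on the PBS arrays, and the defining gene Ltf had means of 10.43 after G-CSF and 8.10 after PBS. The 15 genes of S phase and mitosis averaged 7.83 to 8.48 and 7.22 to 7.54, and the 9 markers of granulocyte-monocyte progenitors 7.39 to 8.01 and 5.96 to 7.56. The 12 erythroid markers averaged 6.25 to 7.03 on the G-CSF arrays and 6.62 to 7.41 on the PBS arrays, which overlapped. In bulk samples a change in the share of a cell type and a change in RNA per cell cannot be told apart.

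Most antioxidant transcripts had slightly higher means in stem cells from G-CSF-treated mice, and the microsomal glutathione transferase Mgst1 had a 3.80-fold higher one. No gene of the system passed an adjusted p of 0.05 over all genes in either direction (limma), where 0.0953% of all genes passed as higher and 0% as lower. The log2 fold change was positive for 33 of the 36 genes, compared with 41.7% of all genes and 66.5% of the genes above the median intensity, where 31 of the 36 lay. Its median was 0.28, against -0.07 over all genes and 0.13 over the brighter ones. With no adjustment, p lay under 0.05 for 7 antioxidant genes as higher (19.4%; 6.07% of all genes and 11% of the brighter ones) and for 0 as lower (2.94% of all genes). They were Mgst1, Gpx7, Txn1, Gpx1, Txn2, Nfe2l2 and Gclm. All 4 G-CSF values lay above all 4 PBS values for Mgst1, Gpx7, Txn1, Gpx1, Glrx and Prdx2, which is 6 genes (16.7%; 3.37% of all genes and 6.18% of the brighter ones), and below them for 0 (2.78% of all genes). Leaving out PBS replicate 1 brought the unadjusted count to 12 (33.3%; 7.48% of all genes and 13.8% of the brighter ones) and the count without overlap to 11 (30.6%; 6.22% and 11.5%). Leaving out G-CSF replicate 2 brought the unadjusted count to 3 (8.33%; 4.38% of all genes and 7.63% of the brighter ones), which is close to the share of the brighter genes.

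Without PBS replicate 3 fewer fold changes were positive and their median was smaller. The log2 fold change was then positive for 27 of the 36 genes (46.9% of all genes and 58.1% of the brighter ones), and its median was 0.13, against -0.02 and 0.05. An unadjusted p under 0.05 was reached by 6 genes as higher (16.7%; 5.64% of all genes and 9.58% of the brighter ones), of which 4 were among the 7 above, and 0 genes passed after adjustment. The groups of 6 antioxidant genes did not overlap (16.7%; 4.76% of all genes and 7.59% of the brighter ones), and these are the same 6, which leaving out a PBS array cannot make overlap. For 28 of the 36 genes the fold change lay closer to 0 without that array, and for 8 its sign turned.

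**Figure D1:**
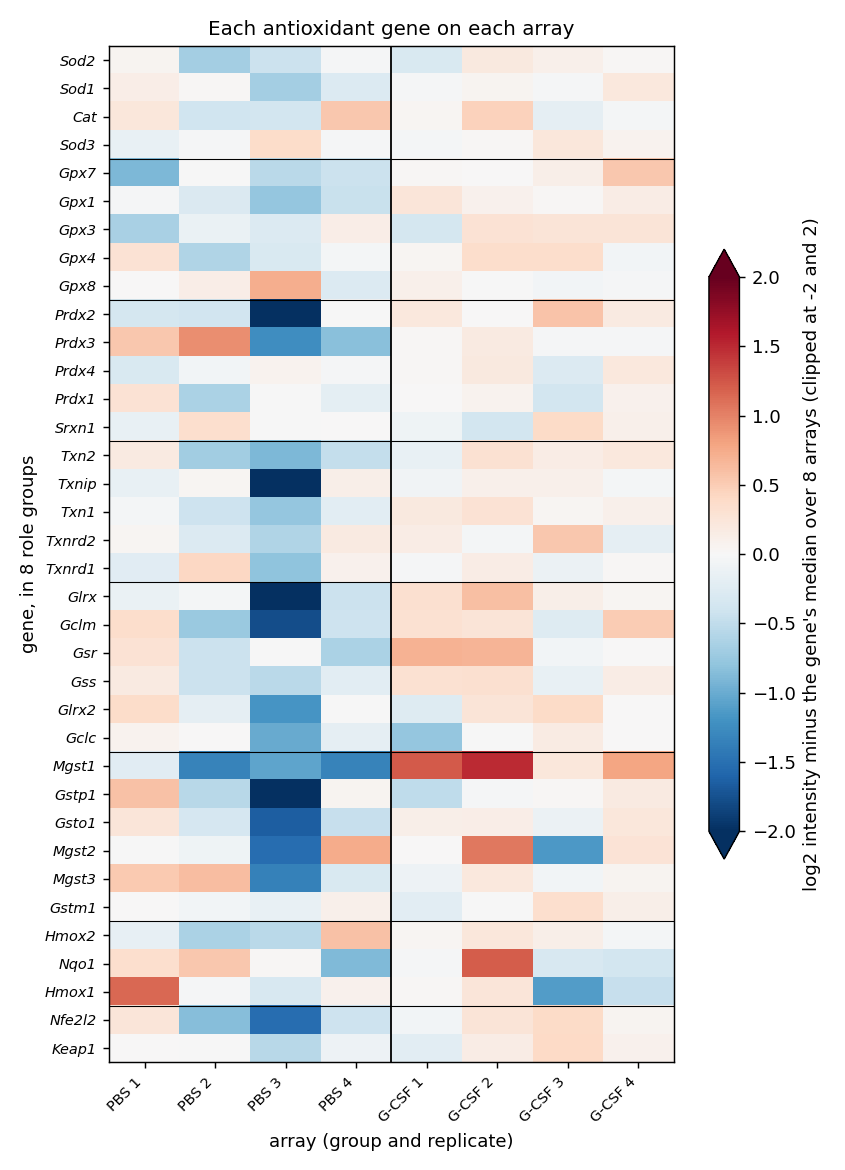
Log2 intensity of each of the 36 antioxidant genes on each of the 8 arrays, minus the gene's median over the arrays, with genes grouped by role and red for higher values. PBS replicate 3 is the darkest blue column in many rows and holds the lowest value of 20 genes, whereas Mgst1 is red on the 4 G-CSF arrays and blue on the 4 PBS arrays.

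**Figure D2:**
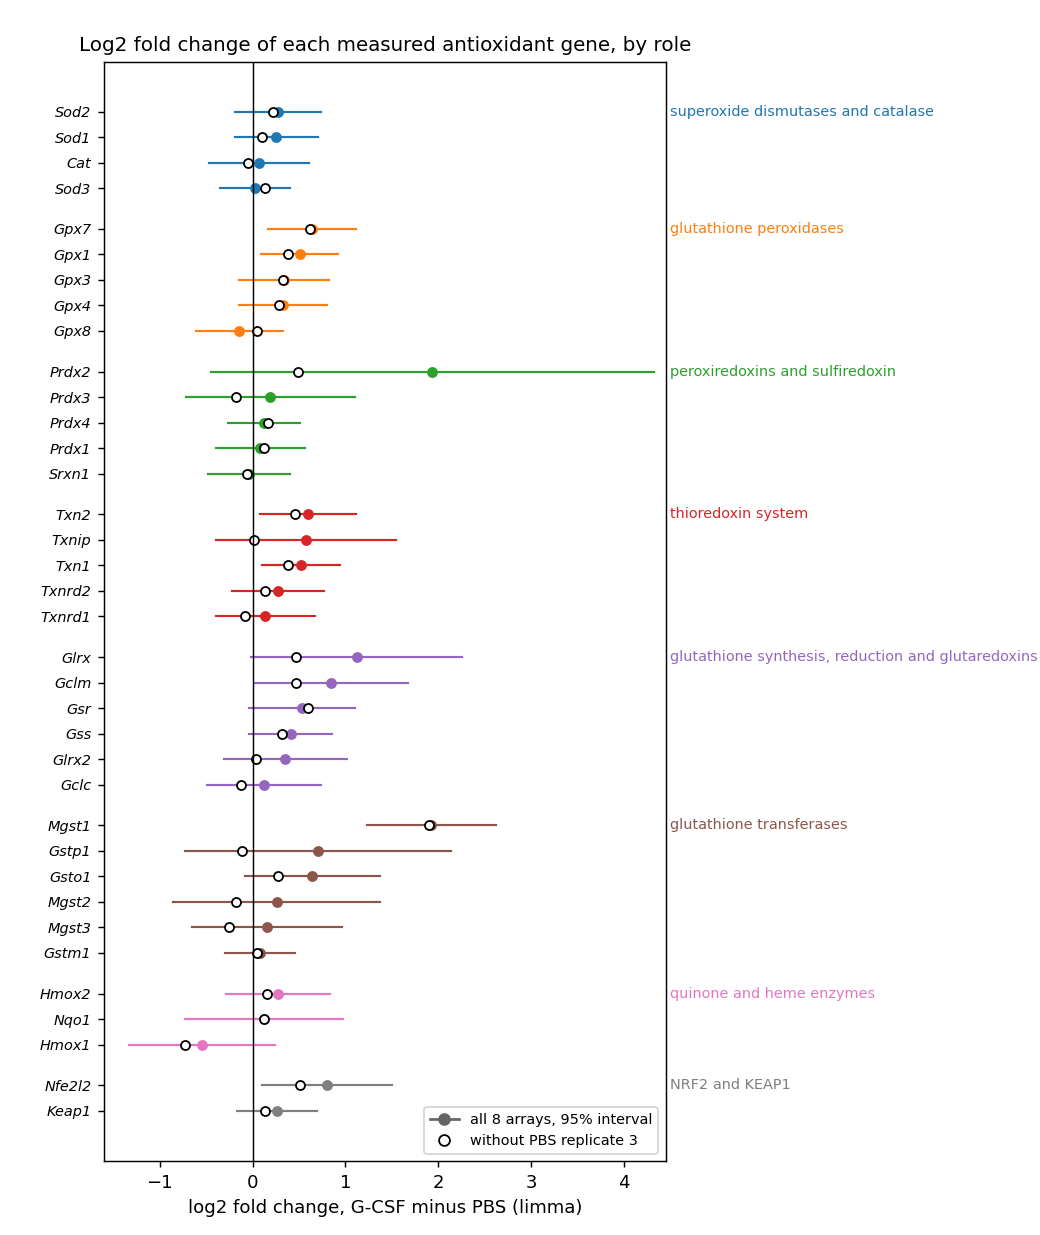
Log2 fold change of each antioxidant gene, G-CSF minus PBS, by role. Filled points are the limma estimates over 8 arrays with 95% intervals and open points those without PBS replicate 3. The interval of Mgst1 runs from 1.23 to 2.62, while the estimate for Prdx2 moves from 1.94 to 0.49 when that array is left out.

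The superoxide dismutases and catalase had small fold changes. Of these enzymes, 0 of 4 reached an unadjusted p under 0.05. Sod1, the cytosolic copper-zinc enzyme, had means of 11.18 after G-CSF and 10.92 after PBS, and Sod2, the manganese enzyme of mitochondria, 7.41 and 7.14. The secreted Sod3 had 4.52 and 4.49. Catalase (Cat), the peroxisomal enzyme, had means of 9.05 and 8.98, and its log2 fold change of 0.07 had a 95% interval from -0.47 to 0.61. That interval includes differences in either direction. The range of fold changes in this group was 0.03 to 0.28 on the log2 scale, and that of Cat turned to -0.05 without PBS replicate 3.

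Glutathione peroxidases, which reduce peroxides with glutathione, had positive fold changes for 4 of 5 genes. Gpx1, the cytosolic selenoenzyme, read 11.32, 11.07, 10.57 and 10.91 in PBS replicates 1 to 4 and 11.59, 11.44, 11.38 and 11.50 in G-CSF replicates 1 to 4. The G-CSF values were tightly grouped and all above the PBS values, though G-CSF replicate 3 exceeded PBS replicate 1 only narrowly. Its fold change on the log2 scale was 0.51 ± 0.19 SE (limma adjusted p = 0.477), and 0.38 without PBS replicate 3. Gpx7, a peroxidase of the endoplasmic reticulum that acts in protein folding, read 4.46, 5.34, 4.81 and 4.92 after PBS and 5.38, 5.36, 5.47 and 5.88 after G-CSF. Its groups were separated by the small step between PBS replicate 2 and G-CSF replicate 2. On the log2 scale its fold change was 0.64 ± 0.22 SE (limma adjusted p = 0.44) and 0.62 without PBS replicate 3.

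The remaining peroxidases overlapped between the groups. Gpx4, which protects membranes from lipid peroxides, had means of 9.21 after G-CSF and 8.88 after PBS and a log2 fold change of 0.33, and its other probe set gave 0.47. Gpx3, the secreted form, had 5.82 and 5.48. G-CSF replicate 1 was low for Gpx3 at 5.35, where the other G-CSF arrays read 5.96 or more. Gpx8, a relative of Gpx7 in the same compartment, had 3.98 and 4.12, and its log2 fold change of -0.14 became 0.05 without PBS replicate 3. Gpx3, Gpx7, Gpx8, Sod3 and Nqo1 are the 5 genes below the median intensity, and no detection call was used for them.

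Peroxiredoxins, thiol peroxidases that take electrons from thioredoxin, gave 1 large and poorly determined difference. Prdx2, the cytosolic form that is abundant in red cells, read 9.61, 9.58, 3.91 and 9.96 after PBS and 10.17, 9.97, 10.54 and 10.14 after G-CSF. PBS replicate 3 lay far below every other array. This gave a log2 fold change of 1.94 ± 1.08 SE (limma adjusted p = 0.578), and 0.49 ± 0.17 SE without PBS replicate 3 (limma adjusted p = 0.456). This gene has another probe set, with means of 8.92 and 8.25 and a log2 fold change of 0.67, and with the probe sets averaged the value was 1.31. Prdx1, its close cytosolic relative, had means of 10.32 and 10.23 and fold changes of 0.08 and 0.13 by its probe sets. Prdx3, the mitochondrial form, had means of 7.62 and 7.43, and its fold change of 0.19 became -0.17 without PBS replicate 3. Prdx4, of the endoplasmic reticulum, had 7.84 and 7.72.

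Sulfiredoxin (Srxn1), which repairs overoxidized peroxiredoxins and is a target of NRF2, read 6.47, 6.96, 6.62 and 6.64 after PBS and 6.54, 6.27, 7.01 and 6.73 after G-CSF. The groups overlapped fully, with a log2 fold change of -0.04 ± 0.20 SE (limma adjusted p = 0.944).

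In the thioredoxin system all 5 genes had positive fold changes over the 8 arrays (41.7% of all genes and 66.5% of the brighter ones). Both thioredoxins were higher at an unadjusted p under 0.05 (6.07% and 11%). Without PBS replicate 3 only Txn1 of these genes was, and the fold change of Txnrd1 turned negative. Txn1, the cytosolic thioredoxin, read 11.10, 10.72, 10.37 and 10.93 after PBS and 11.34, 11.44, 11.18 and 11.25 after G-CSF. Every G-CSF value was above every PBS value, with G-CSF replicate 3 nearest to PBS replicate 1. For Txn1 the log2 fold change was 0.52 ± 0.19 SE (limma adjusted p = 0.469) and 0.38 ± 0.14 SE without PBS replicate 3. Txn2, its mitochondrial counterpart, read 8.44, 7.58, 7.37 and 7.80 after PBS and 8.11, 8.58, 8.43 and 8.47 after G-CSF. PBS replicate 1 was as high as the G-CSF arrays, so the groups overlapped. For Txn2 the log2 fold change was 0.60 ± 0.24 SE (limma adjusted p = 0.511). Without PBS replicate 3 it was 0.46 ± 0.22 SE, at an unadjusted limma p of 0.0639. The array means of the S phase and mitosis genes and of the neutrophil markers also lay higher on every G-CSF array. Their median log2 fold changes were 0.66 and 1.76. From high to low, the G-CSF replicates ran 2, 1, 4, 3 by Txn1 and by the neutrophil mean. They ran 2, 4, 3, 1 by Txn2 and 4, 3, 2, 1 by the S phase and mitosis mean. The part of either list in the thioredoxin values was not tested.

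The reductases that recharge thioredoxin had smaller fold changes. Txnrd1, the cytosolic selenoenzyme and a target of NRF2, read 7.09, 7.72, 6.52 and 7.40 after PBS and 7.30, 7.46, 7.20 and 7.33 after G-CSF. The G-CSF values lay inside the PBS range. Its log2 fold change of 0.14 ± 0.24 SE (limma adjusted p = 0.807) became -0.08 without PBS replicate 3. Txnrd2, the mitochondrial reductase, had means of 6.55 and 6.27. Txnip, the inhibitor of thioredoxin that also limits glucose uptake and is known to restrain stem cell cycling, read 10.84, 11.03, 8.74 and 11.10 after PBS and 10.91, 11.09, 11.08 and 10.94 after G-CSF. Apart from PBS replicate 3 all of its values lay close together. With that array the log2 fold change was 0.58 ± 0.44 SE (limma adjusted p = 0.63), and without it 0.01 ± 0.13 SE.

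**Figure D3:**
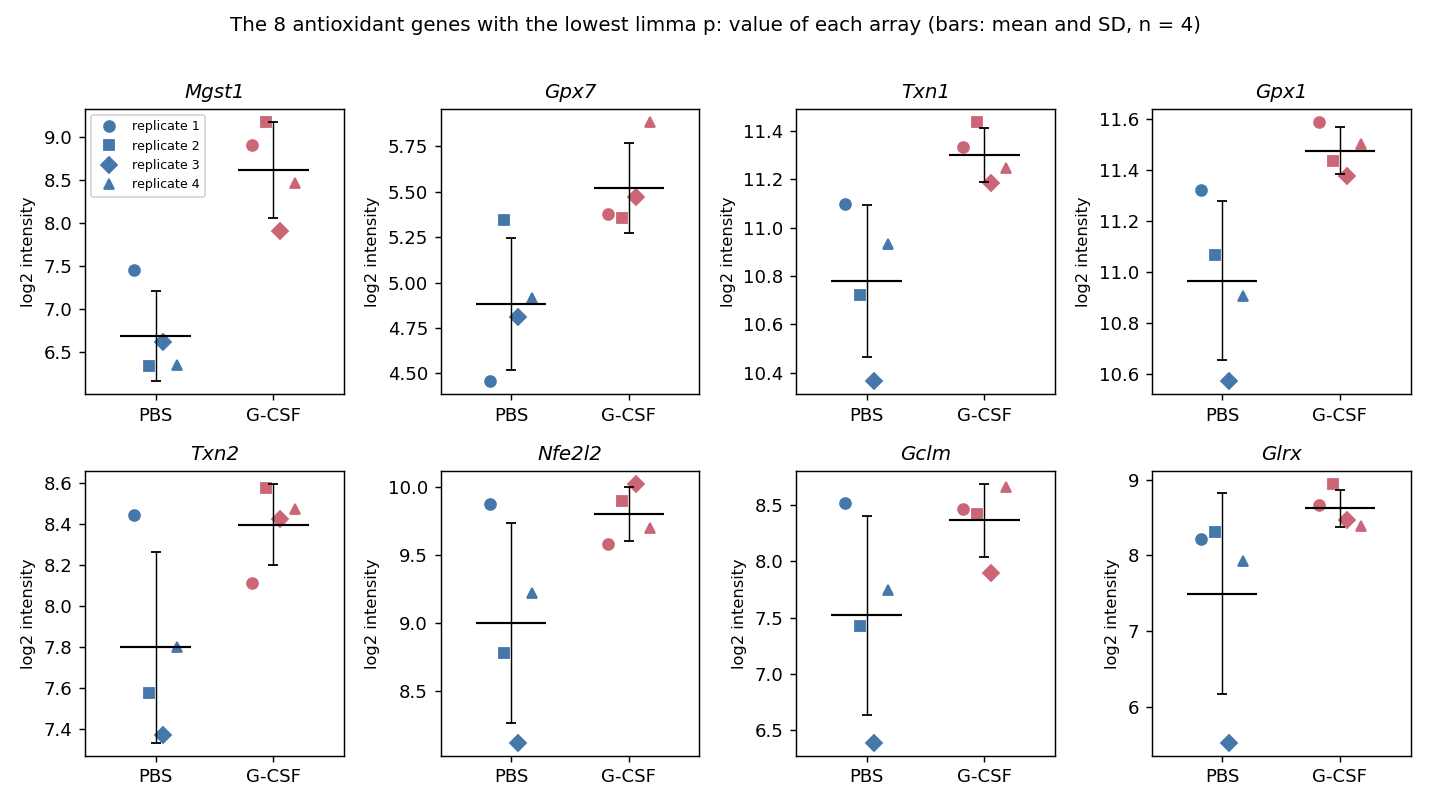
Log2 intensity of the 8 antioxidant genes with the lowest limma p, by group, 1 point per array with marker shape for the replicate number, and bars for the mean and SD of 4 arrays. PBS replicate 3 (diamond) is the lowest PBS point of Txn1, Gpx1, Txn2, Nfe2l2, Gclm and Glrx, and the G-CSF points of Mgst1 lie between 7.91 and 9.17 against 6.34 to 7.45 for PBS.

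The 6 genes of glutathione synthesis, glutathione reduction and the glutaredoxins all had positive fold changes, from 0.12 to 1.12, with 1 at an unadjusted p under 0.05. That gene was Gclm, the modifier subunit of glutamate-cysteine ligase, which sets the pace of glutathione synthesis. It read 8.52, 7.42, 6.39 and 7.75 after PBS and 8.47, 8.43, 7.90 and 8.67 after G-CSF. PBS replicate 1 was higher than 3 of the 4 G-CSF arrays. For Gclm the log2 fold change was 0.84 ± 0.38 SE (limma adjusted p = 0.546) and 0.47 ± 0.27 SE without PBS replicate 3. The catalytic subunit Gclc read 7.12, 7.06, 6.04 and 6.87 after PBS and 6.27, 7.04, 7.22 and 7.05 after G-CSF. Here the groups overlapped, and the log2 fold change of 0.12 ± 0.28 SE (limma adjusted p = 0.856) became -0.12 without PBS replicate 3.

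Glutathione synthetase (Gss), which completes the tripeptide, had means of 6.64 after G-CSF and 6.23 after PBS. Glutathione reductase (Gsr), which regenerates glutathione with NADPH, had means of 8.71 ± 0.41 (SD, n = 4) and 8.18 ± 0.41 (SD, n = 4), and a log2 fold change of 0.53 that was 0.60 without PBS replicate 3. Glrx, the cytosolic glutaredoxin that removes glutathione from protein thiols, read 8.21, 8.32, 5.53 and 7.93 after PBS and 8.67, 8.95, 8.47 and 8.39 after G-CSF. The groups did not overlap, and PBS replicate 3 stood far below the rest. The fold change of Glrx on the log2 scale was 1.12 ± 0.52 SE (limma adjusted p = 0.551), and without that array 0.47 ± 0.18 SE (limma adjusted p = 0.477). The mitochondrial Glrx2 had means of 7.81 and 7.45.

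Mgst1, a glutathione transferase and peroxidase of the endoplasmic reticulum and outer mitochondrial membranes, had the lowest p of the system. It read 7.45, 6.34, 6.62 and 6.35 in PBS replicates 1 to 4 and 8.91, 9.17, 7.91 and 8.47 in G-CSF replicates 1 to 4. All G-CSF values lay above all PBS values, with PBS replicate 1 the highest of the controls and G-CSF replicate 3 the lowest of the treated samples. The means were 8.61 ± 0.55 (SD, n = 4) and 6.69 ± 0.52 (SD, n = 4), a log2 fold change of 1.93 ± 0.32 SE that ranked 25 by p among the 19938 genes and did not pass (limma adjusted p = 0.0612). Without PBS replicate 3 the log2 fold change was 1.90 (limma adjusted p = 0.12), and after quantile normalization it was 1.83 (limma adjusted p = 0.127). It passed in 2 of the 19 alternatives at a threshold of 0.05, without PBS replicate 1 (adjusted p = 0.0359) and without G-CSF replicate 3 (adjusted p = 0.0392), while leaving out any 1 of the other 6 arrays gave 0.12 to 0.212. With limma its adjusted p over the alternatives ran from 0.0359 to 0.259, the latter with all probe sets. The exact permutation test, also counted among the 19, gave 0.464. That is the lowest adjusted p of that test over all genes, so Mgst1 could not pass there whatever its values. The estimate itself stayed between 1.74 and 2.18.

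The 8 arrays stood in the same order by Mgst1 as by the mean of the 16 neutrophil markers. This was noticed after the values were seen. A match over all 8 arrays was found for 1 of 36 antioxidant genes and 2 of all 19938 genes. The marker means were 10.29, 10.34, 8.49 and 8.93 in G-CSF replicates 1 to 4 and 8.21, 7.27, 7.70 and 7.57 in PBS replicates 1 to 4. Both were highest in G-CSF replicates 2 and 1 and lowest in PBS replicates 4 and 2. Some steps of this order were very small. Mgst1 read 6.34 in PBS replicate 2 and 6.35 in PBS replicate 4, and the marker means of G-CSF replicates 1 and 2 were also close. Txn1 shared the order of the 4 G-CSF arrays and PBS replicate 1, and differed from it among PBS replicates 2 to 4. Of the 16 markers, 14 were higher at an unadjusted p under 0.05 and 0 passed after adjustment (limma), with a median log2 fold change of 1.76. None of the defining markers Ltf, Ngp, S100a8 and Mmp9 was at the low end of the scale, the least bright, Mmp9, lying above 69.5% of genes over all arrays. The part of neutrophil or progenitor RNA in the value of Mgst1 was not tested.

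**Figure D4:**
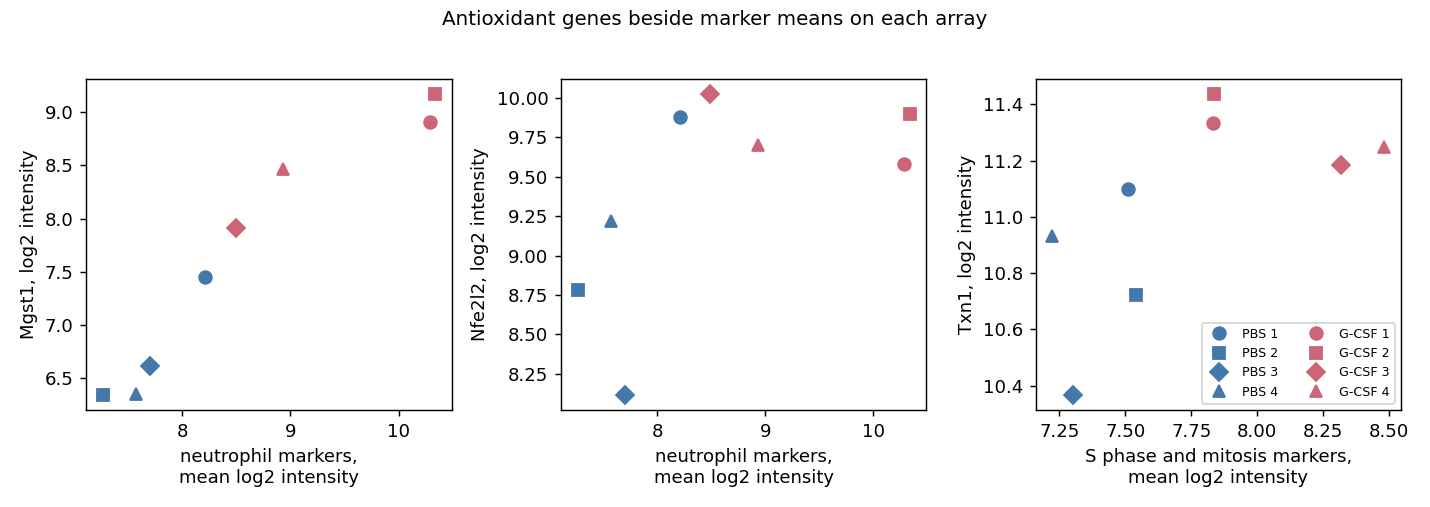
Log2 intensity of Mgst1 and Nfe2l2 against the mean of 16 neutrophil markers, and of Txn1 against the mean of 15 genes of S phase and mitosis, 1 point per array. The arrays stand in the same order by Mgst1 and by the neutrophil mean, with some steps very small. Nfe2l2 was as high on PBS replicate 1 (9.88) as on the G-CSF arrays (9.58 to 10.03).

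The relatives of Mgst1 had smaller fold changes, and the differences from Mgst1 were not tested. Mgst2 had a G-CSF mean of 6.88 ± 0.91 (SD, n = 4) and a PBS mean of 6.61 ± 0.95 (SD, n = 4), and Mgst3 6.75 and 6.59. Their fold changes of 0.26 and 0.16 became -0.17 and -0.25 without PBS replicate 3. Among the soluble transferases, Gsto1, of the omega class, had means of 7.82 and 7.18 with a log2 fold change of 0.64, and 0.28 without PBS replicate 3. Gstp1, of the pi class, had 9.81 and 9.10. PBS replicate 3 read 6.66 for Gstp1, where the other PBS arrays read 9.33 to 10.47, and its log2 fold change of 0.70 became -0.11 without that array. Probe sets shared by Gstp1 and Gstp2 gave 0.10 and 0.11. Gstm1, of the mu class, had means of 9.96 and 9.88, with a 95% interval of the log2 fold change from -0.29 to 0.46. It belongs to a family of near-identical genes whose signals a probe set can mix.

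Among the enzymes of quinone and heme breakdown, Hmox1 had the most negative fold change of the system. Heme oxygenase 1 (Hmox1) breaks down heme and is induced by NRF2 and by inflammation. It read 11.37, 10.19, 9.91 and 10.31 after PBS and 10.25, 10.47, 9.11 and 9.77 after G-CSF. The highest value was that of PBS replicate 1 and the lowest that of G-CSF replicate 3, and the groups overlapped. For Hmox1 the log2 fold change was -0.54 ± 0.36 SE (limma adjusted p = 0.602) and -0.72 without PBS replicate 3. PBS replicate 1 also had the highest mean of the monocyte and macrophage markers (8.06, against 6.74 to 7.93 elsewhere) and of the erythroid markers (7.41), and G-CSF replicate 3 had among the lowest (6.74 and 6.29). The mean of the 8 megakaryocyte markers was likewise highest in PBS replicate 1 (7.57) and lowest in G-CSF replicate 3 (6.34). The part of such cells in the value of Hmox1 was not tested. Hmox2, the constitutive enzyme, had means of 8.34 and 8.06. Nqo1, a quinone reductase and a standard readout of NRF2, read 5.06, 5.27, 4.75 and 3.85 after PBS and 4.71, 5.94, 4.40 and 4.36 after G-CSF. The highest of these was G-CSF replicate 2, and the groups overlapped. Its log2 fold change was 0.12 ± 0.39 SE (limma adjusted p = 0.898).

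The transcript of NRF2 itself had a higher mean after G-CSF, and the 6 of its known targets named below had fold changes in both directions. Nfe2l2 read 9.88, 8.78, 8.12 and 9.22 after PBS and 9.58, 9.89, 10.03 and 9.70 after G-CSF. PBS replicate 1 was as high as the treated samples, and the other PBS arrays were all below them. For Nfe2l2 the log2 fold change was 0.80 ± 0.32 SE (limma adjusted p = 0.515) and 0.51 ± 0.24 SE without PBS replicate 3. Keap1, which holds NRF2 for degradation, read 6.62, 6.62, 6.07 and 6.52 after PBS and 6.40, 6.76, 7.01 and 6.70 after G-CSF. These groups overlapped, with a log2 fold change of 0.26 ± 0.20 SE (limma adjusted p = 0.625). Of the 6 target genes Nqo1, Hmox1, Gclc, Gclm, Srxn1 and Txnrd1, 4 had a positive fold change, beside 41.7% of all genes and 66.5% of the brighter ones. Only Gclm was higher at an unadjusted p under 0.05 (6.07% and 11%), and 0 passed after adjustment (limma). Without PBS replicate 3, Gclc (-0.12) and Txnrd1 (-0.08) turned negative, while Hmox1 (-0.72) and Srxn1 (-0.05) stayed so. Nqo1 (0.13) and Gclm (0.47) stayed positive, Gclm then at an unadjusted limma p of 0.12. Protein level and nuclear NRF2, through which the pathway is mainly controlled, are not measured by these arrays.

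The antioxidant response element, the DNA letters that NRF2 binds, was looked for as TGACNNNGC on both strands, from 250 bases before to 50 bases after each annotated start (RefSeq, GRCm38.p6). Windows were found for 32 of the 36 genes, while Hmox1, Gclc, Gsr and Sod3 had none and were not searched. The letters were present for 7 of the 32 genes (21.9%), compared with 15.2% of 15614 tested genes. By window the shares were 15.6% and 13.2%. The genes with a match were Mgst1, Gclm, Nfe2l2, Txnrd1, Prdx1, Sod1 and Srxn1, the last with a match inside the transcribed part. The stretches below are shown because they set Mgst1, the gene with the lowest p, beside NRF2 itself and 4 other genes with a match. Each is read 5′ to 3′ on the strand of its gene and ends before the start site, and the capitals mark the match, which is in reverse orientation except in Nfe2l2.
Mgst1, chr6:138140441-138140509, plus strand: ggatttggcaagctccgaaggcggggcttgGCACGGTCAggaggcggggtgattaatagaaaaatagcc
Gclm, chr3:122245393-122245461, plus strand: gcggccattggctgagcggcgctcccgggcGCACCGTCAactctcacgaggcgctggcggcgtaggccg
Nfe2l2, chr2:75704865-75704913, minus strand: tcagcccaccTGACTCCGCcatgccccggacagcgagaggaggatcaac
Txnrd1, chr10:82859084-82859152, plus strand: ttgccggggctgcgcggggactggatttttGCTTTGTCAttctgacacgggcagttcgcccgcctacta
Prdx1, chr4:116685436-116685504, plus strand: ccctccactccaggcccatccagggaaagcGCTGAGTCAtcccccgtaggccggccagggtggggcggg
Sod1, chr16:90220676-90220744, plus strand: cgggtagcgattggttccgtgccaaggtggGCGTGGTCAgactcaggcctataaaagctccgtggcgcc
A match describes these letters only. The 7 genes with a match had log2 fold changes of 1.93 for Mgst1, 0.84 for Gclm, 0.80 for Nfe2l2, 0.26 for Sod1, 0.14 for Txnrd1, 0.08 for Prdx1 and -0.04 for Srxn1. Mgst1 has another annotated start downstream, whose window holds 0 matches.

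Other genes of the same chemistry, 84 measured genes outside the list, lay mostly (63) above the median intensity, and their shares were near the background. None passed after adjustment (limma), and 6 were higher (7.14%; 6.07% of all genes and 11% of the brighter ones) and 0 lower at an unadjusted p under 0.05. Positive fold changes were found for 58 (69%; 41.7% of all genes and 66.5% of the brighter ones), with a median of 0.17, against 0.13 over the brighter genes. Pgd, the second NADPH-producing enzyme of the pentose phosphate pathway, read 8.56, 8.11, 6.48 and 7.85 after PBS and 9.65, 9.69, 8.49 and 9.26 after G-CSF. G-CSF replicate 3 lay just below PBS replicate 1, and the log2 fold change was 1.52 ± 0.41 SE (limma adjusted p = 0.303). Txndc12, a thioredoxin-like protein of the endoplasmic reticulum, had a log2 fold change of 1.01 ± 0.27 SE (limma adjusted p = 0.303) without overlap of the groups. Msra, which repairs oxidized methionine, had 0.55 ± 0.20 SE, and Glrx5, a mitochondrial glutaredoxin of iron-sulfur cluster assembly, 0.68 ± 0.27 SE. By function, 3 of 20 peroxidases and glutaredoxins, 1 of 9 NADPH-supplying enzymes, 1 of 16 further glutathione transferases and 1 of 11 genes of heme and iron handling were at an unadjusted p under 0.05, which is 15%, 11.1%, 6.25% and 9.09% beside the 6.07% and 11% above. Of the 15 genes of glutathione and cystine supply and the 13 partners and repressors of NRF2, 0 were.

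Within groups the antioxidant genes varied more among the controls, and so did all genes by their median SD. The SD was larger among the PBS arrays than among the G-CSF arrays for 31 of 36 genes, with medians of 0.47 and 0.23. Over all genes the medians were 0.34 and 0.22. Without PBS replicate 3 the median among the 3 other PBS arrays was 0.38. An SD above 0.5 was found for 17 genes among the PBS arrays (9 without replicate 3) and for 4 among the G-CSF arrays. The matching counts over all genes, and their median SD without PBS replicate 3, are not given here. Each replicate is a pool of mice, and differences between animals cannot be told apart from those of sorting and amplification.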

How the data were processed

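Per the labels' protocols, the RNA came from RNA XS columns, NuGen Ovation served for amplification and biotin for labelling before the MoGene 1.0 ST arrays. The authors deposited 1 intensity per probe set and array, and the submitters' processing notes name RMA, with no version or options. Since RMA usually returns log2 values and the deposited intensities are linear, log2 was taken before each test. Of 35556 probe sets, 21789 carried 1 symbol; for each gene the probe set with the highest mean was kept. G-CSF and PBS were compared over all 19938 genes with limma 3.58.1 in R 4.3.3 (lmFit, eBayes, 2-sided, Benjamini-Hochberg over all genes, threshold 0.05, no filter on dim genes). Scripts were tested on simulated data. The smallest exact permutation p for 4 against 4 arrays is 0.0286. Alternatives changed the variance moderation, array weights, normalization, probe sets, threshold and arrays used, and added the replicate number as a block.

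The genes and lists were chosen with earlier results of these data known. By rule, all antioxidant genes are named, and every array is given for the 8 with the lowest p (as fewer than 5 passed), for the NRF2 regulators, 6 NRF2 targets and Txnip. Of related genes the 4 with the lowest p are named. Prdx2 and Gstp1 were given more fully after their values were seen. The labels describe the samples as independent, and no hybridization date or detection call was used here.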

Additional observations from a re-analysis of the deposited data

Results flagged for a closer look

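Within each group of 4 arrays, a value was singled out where its distance to the nearest array was a larger share of the group's range than Dixon's 95% critical value. Of 72 gene and group sets, 4 met this, and chance alone gives about 1 in 20, or 3.6. PBS replicate 3 was the low array in 3 of them. It read 3.91 for Prdx2 (the other PBS arrays 9.58 to 9.96), 8.74 for Txnip (10.84 to 11.10) and 5.53 for Glrx (7.93 to 8.32). The fourth was Gpx3, where G-CSF replicate 1 read 5.35 and the other G-CSF arrays 5.96 or more. What sets these arrays apart was not tested.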

How the results depend on the processing

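The count of antioxidant genes past the threshold was 0 in the main comparison and in every alternative but 3, in each of which it was 1, namely Mgst1. These were the threshold of 0.1 and the sets without PBS replicate 1 and without G-CSF replicate 3, so the count ran from 0 to 1 with 1 array left out. With 1 array left out, the number at an unadjusted p under 0.05 as higher ran from 3 (without G-CSF replicate 2) to 12 (without PBS replicate 1), and that without overlap from 6 to 11 (without PBS replicate 1). Quantile normalization of the 7 arrays other than PBS replicate 3 gave 4 higher and 1 lower at an unadjusted p under 0.05. Over all genes, 19 were higher and 0 lower; the higher count was 37 with array weights (3 lower), 10 after quantile normalization, 0 with all probe sets (lowest adjusted p 0.0615, 2743 at an unadjusted p under 0.05), 52 at a threshold of 0.1, and 3 to 30 with 1 array left out (0 to 2 lower). On those 7 arrays so normalized, 1 gene was lower. The single arrays that moved the higher count by over 1.5 times were G-CSF replicates 1 (10 without it), 2 (3), 3 (30) and 4 (7).

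Across 679 antioxidant gene values under alternatives, 636 kept their direction and their side of the threshold, 2 (Mgst1) newly passed and 41 turned sign, none of them past the threshold. The direction was fixed in advance in part of these. The moderation options, replicate block, limit to brighter genes, shared symbols, all probe sets and exact permutation test left each fold change unchanged. No sign could turn under them, so the 636 do not measure how stable the directions are. Under the exact permutation test no gene could pass either, as its lowest adjusted p over all genes was 0.464. The 22 genes that never turned include all 8 with the lowest p. Log2 fold changes that turned were, with array weights, Cat -0.090, Gpx8 0.028, Prdx3 -0.028, Txnrd1 -0.033, Gclc -0.030, Mgst2 -0.18, Mgst3 -0.14; after quantile normalization, Cat -0.027, Gpx8 0.036, Prdx1 -0.068, Gstm1 -0.043; and with PBS replicate 3 left out as well, Cat -0.099, Gpx8 0.14, Prdx3 -0.19, Txnrd1 -0.11, Txnip -0.087, Gclc -0.16, Mgst2 -0.21, Mgst3 -0.27, Gstp1 -0.15, Gstm1 -0.030. With 1 array left out the ranges were Sod3 -0.036 to 0.13, Cat -0.063 to 0.25, Gpx8 -0.28 to 0.047, Prdx1 -0.081 to 0.23, Prdx3 -0.17 to 0.55, Txnrd1 -0.083 to 0.32, Nqo1 -0.24 to 0.30, Gclc -0.12 to 0.33, Mgst2 -0.17 to 0.66, Mgst3 -0.25 to 0.40, Gstp1 -0.11 to 1.16, Gstm1 -0.011 to 0.17, Srxn1 -0.16 to 0.088. The cause of each turn was not tested. The median over the genes ran from 0.13 to 0.39.

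The groups share replicate numbers in their titles. Same-numbered samples deviated together by correlations of -0.03 to 0.14, and only 1 of 4 PBS and 1 of 4 G-CSF arrays correlated best with its own number, so the numbers were not taken to pair the samples. With the replicate block, 0 antioxidant genes and 23 genes in all passed, and 10 antioxidant genes were higher at an unadjusted p under 0.05, against 7. Without detection calls, how far low signal limits the 5 genes below the median intensity was not tested.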
